A study of Rattus norvegicus with 6 samples.

Results

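The genes of cholesterol and fatty acid synthesis were followed in cultured neural progenitors of the rat cortex. The members are the gene symbols on a list of 30, sorted by role into 7 enzymes of the early sterol steps, 10 enzymes from squalene to cholesterol, 5 genes of the SREBP system and 8 genes of fatty acid synthesis, elongation and desaturation. Of these symbols, 29 are among the 17337 gene names of the deposited tables, and *Scd* is not listed under that symbol. The cells were untreated cortical neural progenitors of Sprague Dawley rats at embryonic day 14, of either sex, grown with bFGF and EGF and collected after the second passage. All groups share this strain, age and culture, and no genotype or treatment was compared. PolyA-selected RNA of 2 biological replicates, A and B, was sequenced as 2 technical libraries each (A1 and A2, B1 and B2), and 2 Start-seq samples of the same cells were not analysed here. Values are FPKM, fragments scaled by transcript length and by library size, and the mean and SD are over replicates A and B (n = 2) with the technical libraries averaged first. With 1 condition and 2 replicates no test was possible, so counts of members are set beside the same count over the 10481 gene names with a mean of at least 1 FPKM. Whether replicates A and B came from separate litters is not stated, and the spread between them is that of these cultures.

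The depth of the libraries was compared through the coverage that belonged to 1 FPKM, since total read numbers were not used. It was 24.3 in A1, 22.7 in A2 and 24.4 in B1, and 6.83 in B2, which stood apart. Of the cell type markers, 8 of 8 neural progenitor genes averaged 1 FPKM or more, and their summed level was 20903 and 22992 FPKM in A1 and A2 and 9961 and 10715 FPKM in B1 and B2. *Fabp7*, a fatty acid binding protein, made up most of that sum. The other 7 summed to 4103 and 4435 FPKM in A1 and A2 and to 3442 and 5229 FPKM in B1 and B2. Without *Fabp7*, B2 was thus the highest library and B1 the lowest. Of the 8 markers, 5 had both libraries of A above both of B, against 32.0% of the 10481 names, and in 3 the libraries overlapped. The 12 meningeal and mesenchymal markers summed to 703 and 686 FPKM in A1 and A2. In B1 and B2 they summed to 2671 and 3799 FPKM. None was at 0, and for 12 of 12 both libraries of B lay above both of A, against 28.1% of the 10481 names. Those of the oligodendrocyte lineage summed to 264 and 290 FPKM in A1 and A2 and to 702 and 359.6 FPKM in B1 and B2. Of the 5 of them that averaged 1 FPKM or more, 3 had both libraries of B above both of A, and 1 the reverse. Markers of microglia summed to between 0.377 and 1.65 FPKM, with *Cx3cr1* and *Ptprc* at 0 in at least 1 library, and those of endothelium to between 0.670 and 2.37 FPKM. In bulk RNA, a change in the share of a cell type and a change in RNA per cell cannot be told apart.

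Cells make cholesterol from acetyl-CoA through mevalonate, isoprenoid diphosphates and squalene, which is closed to lanosterol and then trimmed and reduced to cholesterol. Fatty acids share the acetyl-CoA, and are built by acetyl-CoA carboxylase and fatty acid synthase and then elongated and desaturated. Both arms are under SREBP transcription factors, which SCAP escorts out of the endoplasmic reticulum when sterols are low and which INSIG proteins hold back when sterols are high. Dividing neural progenitors use these lipids for new membrane, and the brain makes nearly all of its own cholesterol.

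The proximal promoters are shown for *Insig1*, *Idi1*, *Cyp51* and *Hmgcs1*, the 4 members with the largest difference in log2(FPKM + 1) between the technical libraries B1 and B2, described further on. The sequences are the 250 bases before the annotated start in RefSeq, build GRCr8, at chr4:8057770-8058019 (minus strand) for *Insig1*, chr17:66547525-66547774 (minus strand) for *Idi1*, chr4:30991443-30991692 (plus strand) for *Cyp51* and chr2:53382054-53382303 (plus strand) for *Hmgcs1*. They are written 5′ to 3′ on the strand of the gene, and capitals mark the letters CCAAT or their complement ATTGG, the CCAAT box that NF-Y binds. GRCr8 is not the build of the expression tables, so its positions differ from the rn6 positions given further on. For *Insig1* the strand differs as well, minus in GRCr8 and plus in the expression tables.
Insig1: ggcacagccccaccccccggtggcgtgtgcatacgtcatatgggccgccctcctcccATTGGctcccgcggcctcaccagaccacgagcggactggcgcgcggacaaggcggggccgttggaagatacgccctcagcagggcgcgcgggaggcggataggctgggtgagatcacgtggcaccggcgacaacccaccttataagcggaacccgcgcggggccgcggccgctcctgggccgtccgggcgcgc
Idi1: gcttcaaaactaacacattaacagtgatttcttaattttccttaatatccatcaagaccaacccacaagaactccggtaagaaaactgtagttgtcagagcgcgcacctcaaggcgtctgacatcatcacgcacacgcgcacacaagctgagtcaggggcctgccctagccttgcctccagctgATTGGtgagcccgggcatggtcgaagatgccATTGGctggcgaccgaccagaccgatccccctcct
Cyp51: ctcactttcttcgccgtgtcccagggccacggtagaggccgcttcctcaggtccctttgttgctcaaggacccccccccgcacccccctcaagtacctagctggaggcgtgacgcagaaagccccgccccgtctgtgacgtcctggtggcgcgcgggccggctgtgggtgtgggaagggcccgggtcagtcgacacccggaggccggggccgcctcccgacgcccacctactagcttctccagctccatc
Hmgcs1: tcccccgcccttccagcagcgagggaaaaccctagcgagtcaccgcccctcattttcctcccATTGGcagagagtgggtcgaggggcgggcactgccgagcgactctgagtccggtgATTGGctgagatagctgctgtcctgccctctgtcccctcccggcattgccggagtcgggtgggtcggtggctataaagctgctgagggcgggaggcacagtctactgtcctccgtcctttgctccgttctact
*Hmgcs1* held the box on the complementary strand with its first base 188 and 133 bases before the start, *Idi1* 66 and 35 bases before it and *Insig1* 193 bases before it, while *Cyp51* had no match in this window.

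RefSeq promoters were matched for 23 of the 29 members, and *Pmvk*, *Fdft1*, *Sqle*, *Acaca*, *Fasn* and *Elovl6* had no entry. Exact letters were searched on both strands of the 250 bases, and each motif was counted on its own even where it overlapped another. The CCAAT box was present in 18 of the 23 promoters, or 78.3%, against 34.0% of all 33469 rat promoters and 34.9% of the 12187 whose gene names are in the expression tables. The GC box, GGGCGG, the letters that Sp1 binds, was present in 19 of the 23, or 82.6%, against 30.5% of all promoters and 50.6% of those with a name in the tables. The E-box CACGTG, a palindrome, was present in 4 of 23, or 17.4%, in *Sc5d*, *Scap*, *Insig1* and *Elovl5*, against 5.59% and 7.13%. The sterol regulatory element searched as TCACNCCAC was present in 0 of 23, against 0.974% of all promoters and 0.985% of those in the tables, which says only that these letters are not in these windows. CCAAT and GC boxes were thus the common letters of the members' promoters, while the start sites used are annotated ones and binding was not measured. Neither background was limited to names with a mean of at least 1 FPKM, which all members reached. How far the gap is shared by other expressed genes was not tested.

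**Figure D1:**
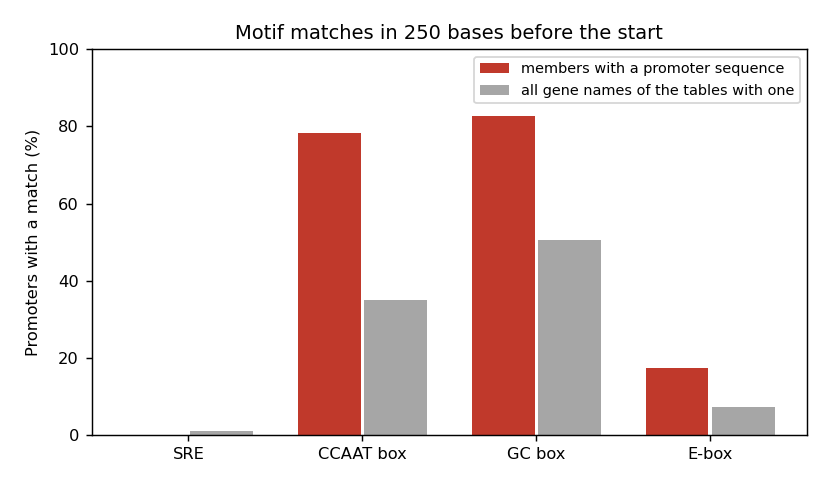
Share of promoters (percent, from 0) that hold each motif in the 250 bases before the RefSeq start, for the 23 members with a promoter sequence and for the 12187 promoters of gene names in the tables. The CCAAT box was in 78.3% of the members' promoters and the SRE letters were in none.

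The members were well expressed in these progenitors. All 29 had a mean of at least 1 FPKM, 28 of them were at 1 FPKM or more in every library, 24 averaged 10 FPKM or more, and 2, *Hmgcs1* and *Fasn*, were above 100 FPKM. The last count was 0 in replicate B alone or with the limit required in every library, 5 in replicate A alone and 6 in TPM. Their median was 29.4 FPKM, against 16.6 FPKM over the gene names with a mean of at least 1 FPKM and 3.83 FPKM over all names, and 20 of the 29 lay above the former. The lowest member, *Hsd17b7*, was at percentile 4.33 of the expressed names and the highest, *Hmgcs1*, at percentile 92.4. The order of the 29 levels was similar between the replicate means (Spearman correlation 0.986 across the 29 genes, which are not independent replicates). Most neighbours in that order were not separated: of 28 neighbouring pairs, 2 had every library of the higher gene above every library of the lower, *Elovl6* over *Acaca* and *Insig2* over *Hsd17b7*, and 10 had the same order within every library.

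**Figure D2:**
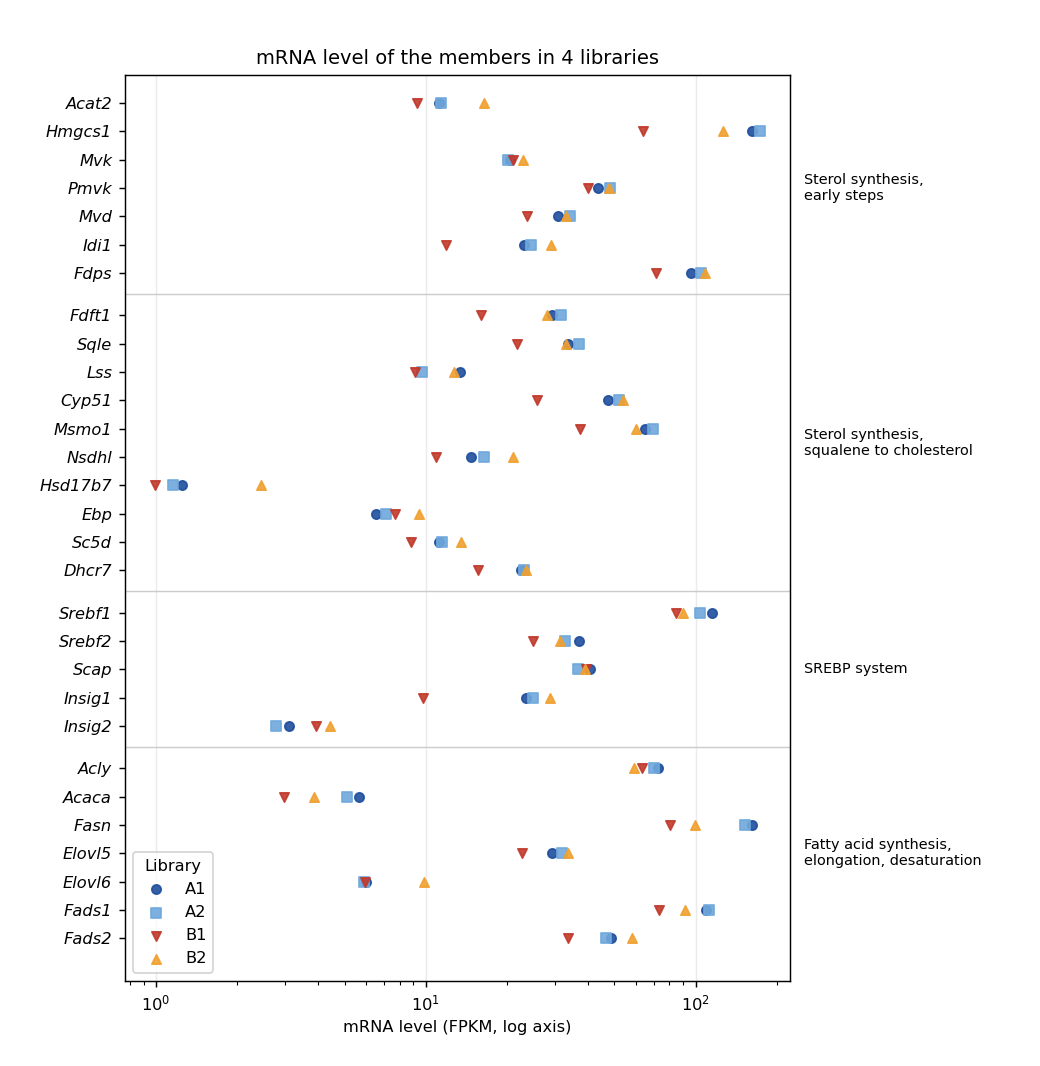
mRNA level (FPKM, log axis) of the 29 members in libraries A1, A2, B1 and B2, grouped by role. Each symbol is 1 library, and the B1 symbol is the lowest of the 4 in 23 of the 29 members.

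The early steps, from acetyl-CoA to farnesyl diphosphate, held the highest member. *Acat2*, which joins acetyl-CoA units in the cytosol (chr1:47972399-47992654, plus strand, rn6), was at 11.2 and 11.3 FPKM in A1 and A2 and at 9.26 and 16.4 FPKM in B1 and B2, a mean of 12.0 ± 1.11. *Hmgcs1*, cytosolic HMG-CoA synthase (chr2:52427579-52445082, plus strand), was at 162 and 174 FPKM in A1 and A2 and at 63.6 and 126 FPKM in B1 and B2, a mean of 131 ± 51.5. Both libraries of A lay above both of B for *Hmgcs1*, while for *Acat2* the libraries of B lay on either side of A. The kinases that phosphorylate mevalonate varied little. *Mvk*, mevalonate kinase, was at 20.5 and 20.1 FPKM in A and at 21.0 and 23.0 FPKM in B, a mean of 21.1 ± 1.20. *Pmvk*, phosphomevalonate kinase, was at 43.5 and 48.3 FPKM in A and at 39.8 and 47.6 FPKM in B, a mean of 44.8 ± 1.58. *Mvd*, the decarboxylase that yields isopentenyl diphosphate, was at 30.9 and 34.2 FPKM in A and at 23.7 and 33.1 FPKM in B, a mean of 30.5 ± 2.94. The remaining early enzymes turn isopentenyl diphosphate into farnesyl diphosphate. *Idi1*, the isomerase (chr17:57976266-57984036, minus strand), was at 23.1 and 24.6 FPKM in A and at 11.9 and 29.2 FPKM in B, a mean of 22.2 ± 2.33. *Fdps*, the synthase, was at 95.9 and 105 FPKM in A and at 71.2 and 108 FPKM in B, a mean of 95.01 ± 7.57. For both, B1 was the low library and B2 was above both libraries of A. *Idi1* overlaps *Wdr37* on the other strand, and since the strand used in counting is not stated, reads of the overlap could not be told apart.

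The enzymes from squalene to cholesterol had means between 1.46 FPKM and 57.9 FPKM. *Fdft1*, squalene synthase, was at 29.3 and 31.6 FPKM in A1 and A2 and at 16.0 and 28.1 FPKM in B1 and B2, a mean of 26.3 ± 5.95. *Sqle*, squalene epoxidase, was at 33.8 and 36.8 FPKM in A and at 21.8 and 33.1 FPKM in B, a mean of 31.4 ± 5.55. *Lss*, lanosterol synthase, was at 13.4 and 9.66 FPKM in A and at 9.14 and 12.7 FPKM in B, a mean of 11.2 ± 0.430. *Lss* had the largest difference between A1 and A2 among the members, about as large as that between B1 and B2, and it overlaps *Spatc1l* on the same strand. The demethylation of lanosterol at its ring carbons is the task of the next enzymes. *Cyp51*, lanosterol 14-alpha-demethylase (chr4:27175564-27194016, plus strand), was at 47.5 and 52.0 FPKM in A and at 25.8 and 54.0 FPKM in B, a mean of 44.8 ± 6.94. *Msmo1*, the methylsterol monooxygenase, was at 64.8 and 69.4 FPKM in A and at 37.3 and 60.2 FPKM in B, a mean of 57.9 ± 13.0. *Nsdhl*, the sterol decarboxylase of that complex, was at 14.7 and 16.5 FPKM in A and at 10.9 and 21.1 FPKM in B, a mean of 15.8 ± 0.281. B1 was lowest in all 3, and B2 was above both libraries of A for *Cyp51* and *Nsdhl* and below them for *Msmo1*. *Hsd17b7*, the 3-ketosteroid reductase of the same complex, was the lowest member, at 1.24 and 1.16 FPKM in A and at 0.992 and 2.45 FPKM in B, a mean of 1.46 ± 0.368. It overlaps *LOC100366054* on the other strand, and in B2 its coverage was 16.7, the lowest of any member in any library. The final double-bond shifts and reductions were carried by genes at intermediate level. *Ebp*, the sterol isomerase, was at 6.56 and 7.14 FPKM in A and at 7.68 and 9.44 FPKM in B, a mean of 7.70 ± 1.21. *Sc5d*, sterol C5-desaturase, was at 11.2 and 11.4 FPKM in A and at 8.82 and 13.5 FPKM in B, a mean of 11.2 ± 0.121. *Dhcr7*, 7-dehydrocholesterol reductase, was at 22.5 and 23.1 FPKM in A and at 15.6 and 23.6 FPKM in B, a mean of 21.2 ± 2.29. Only *Ebp* of these 3 had both libraries of B above both of A.

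In the SREBP system the transcription factor genes and the feedback gene differed in how they varied. *Srebf1*, which encodes the factor best known for fatty acid genes (chr10:46570996-46593009, minus strand), was at 115 and 104 FPKM in A1 and A2 and at 85.0 and 90.0 FPKM in B1 and B2, a mean of 98.4 ± 15.4. *Srebf2*, which encodes the factor best known for sterol genes, was at 36.9 and 32.7 FPKM in A and at 25.03 and 31.4 FPKM in B, a mean of 31.5 ± 4.68. Both libraries of A were above both of B for each of them. *Srebf1* overlaps *Rai1* on the other strand, and *Srebf2* holds *Mir33* on the same strand. *Scap*, the escort protein, was at 40.7 and 36.7 FPKM in A and at 39.3 and 39.0 FPKM in B, a mean of 38.9 ± 0.312, and was nearly level across the libraries. *Insig1*, itself a known SREBP target that retains SCAP (chr4:342302-350515, plus strand), was at 23.5 and 24.9 FPKM in A and at 9.77 and 28.9 FPKM in B, a mean of 21.8 ± 3.45. *Insig2*, the other retention gene, was at 3.12 and 2.78 FPKM in A and at 3.93 and 4.40 FPKM in B, a mean of 3.56 ± 0.858. Thus *Insig1* had its low value in B1 alone, while both libraries of B were above both of A for *Insig2*.

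Fatty acid genes included members near both ends of the range. *Acly*, which makes cytosolic acetyl-CoA from citrate, was at 72.3 and 70.3 FPKM in A1 and A2 and at 63.3 and 59.0 FPKM in B1 and B2, a mean of 66.2 ± 7.17. *Acaca*, acetyl-CoA carboxylase, was at 5.66 and 5.10 FPKM in A and at 2.99 and 3.86 FPKM in B, a mean of 4.40 ± 1.38. *Fasn*, fatty acid synthase (chr10:109987735-110005901, minus strand), was at 162 and 153 FPKM in A and at 80.7 and 99.7 FPKM in B, a mean of 124 ± 47.7. For these 3 enzymes of chain building both libraries of A were above both of B. The elongases follow. *Elovl5* was at 29.3 and 31.9 FPKM in A and at 22.8 and 33.6 FPKM in B, a mean of 29.4 ± 1.72. *Elovl6* was at 6.00 and 5.92 FPKM in A and at 5.93 and 9.84 FPKM in B, a mean of 6.92 ± 1.36, with B2 as the high library. The tables hold *Elovl6* at 2 places on chromosome 2, which were summed, on the minus strand with 3.21, 3.21, 3.23 and 5.33 FPKM in A1, A2, B1 and B2 and on the plus strand with 2.79, 2.71, 2.70 and 4.51 FPKM. Reads shared by such copies may have been split between them, so its level is uncertain.

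Of the desaturase genes, *Fads1*, delta-5 desaturase (chr1:226234113-226249116, plus strand), was at 109 and 112 FPKM in A1 and A2 and at 73.3 and 91.2 FPKM in B1 and B2, a mean of 96.4 ± 20.0, with both libraries of A above both of B. *Fads2*, delta-6 desaturase, was at 48.7 and 46.5 FPKM in A and at 33.5 and 58.1 FPKM in B, a mean of 46.7 ± 1.28, with B on either side of A. These neighbours lie 81544 bases apart. The tables give *Fads2* a span of 245772 bases on the minus strand (chr1:225906797-226152568), which overlaps *Incenp* and *Best1* on its strand and *Fth1*, *Rab3il1* and *Fads3* on the other, so its level is uncertain. *Scd*, stearoyl-CoA desaturase, was the listed symbol not found. RefSeq gives *Scd1* as its synonym, and the tables list *Scd1*, looked up after its values were seen and not counted as a member, at 3.31 and 3.05 FPKM in A and at 1.59 and 11.7 FPKM in B.

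Comparing the biological replicates shows how far these levels hold from culture to culture. Between replicates A and B, a gene was counted as differing when the replicate means were at least 1 apart in log2(FPKM + 1) and the libraries did not overlap. Because of the 1 that is added, this scale gives smaller differences for genes of low level. By this rule 0 of the 29 members were higher in B, where 4.78% of all gene names were counted, and 0 were higher in A, where 1.42% were counted. The libraries of A lay above those of B without overlap in 10 members, or 34.5%, against 32.0% of all names: *Hmgcs1*, *Fdft1*, *Sqle*, *Msmo1*, *Srebf1*, *Srebf2*, *Acly*, *Acaca*, *Fasn* and *Fads1*. The libraries of B lay above those of A in 3 members, *Mvk*, *Ebp* and *Insig2*, or 10.3%, against 28.1% of all names. In the other 16 the libraries overlapped. The share above in A was close to the background, and the share above in B was under it.

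The largest differences between the replicate means were those of *Hmgcs1* and *Fasn*. The mean of *Hmgcs1* was 168 FPKM in A and 94.9 FPKM in B, 1.77-fold higher in A, a log2(FPKM + 1) difference of -0.82 for B minus A. The mean of *Fasn* was 158 FPKM in A and 90.2 FPKM in B, 1.75-fold higher in A, a difference of -0.80. *Acaca* followed with -0.53, and the largest difference in the other direction was 0.39 in *Insig2*. These differences were under the limit of 1, and *Hmgcs1* and *Fasn* were both counted as higher in A with a limit of 0.58. Over the 29 members the median difference was -0.19, with 21 lower and 8 higher in B, against a median of -0.03 over all names, of which 53.2% were lower in B. The direction rested on B1: with B1 alone as replicate B the median was -0.46 and 25 of 29 members were lower than in A, and with B2 alone it was 0.11 and 10 of 29 were lower. *Hmgcs1* and *Insig1* were counted as higher in A when B2 was left out, with log2 differences of -1.39 and -1.23. The signs of *Nsdhl* and *Scap*, at 0.03 and 0.02, also turned in TPM, and kept their direction under another scaling and pseudocount.

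**Figure D3:**
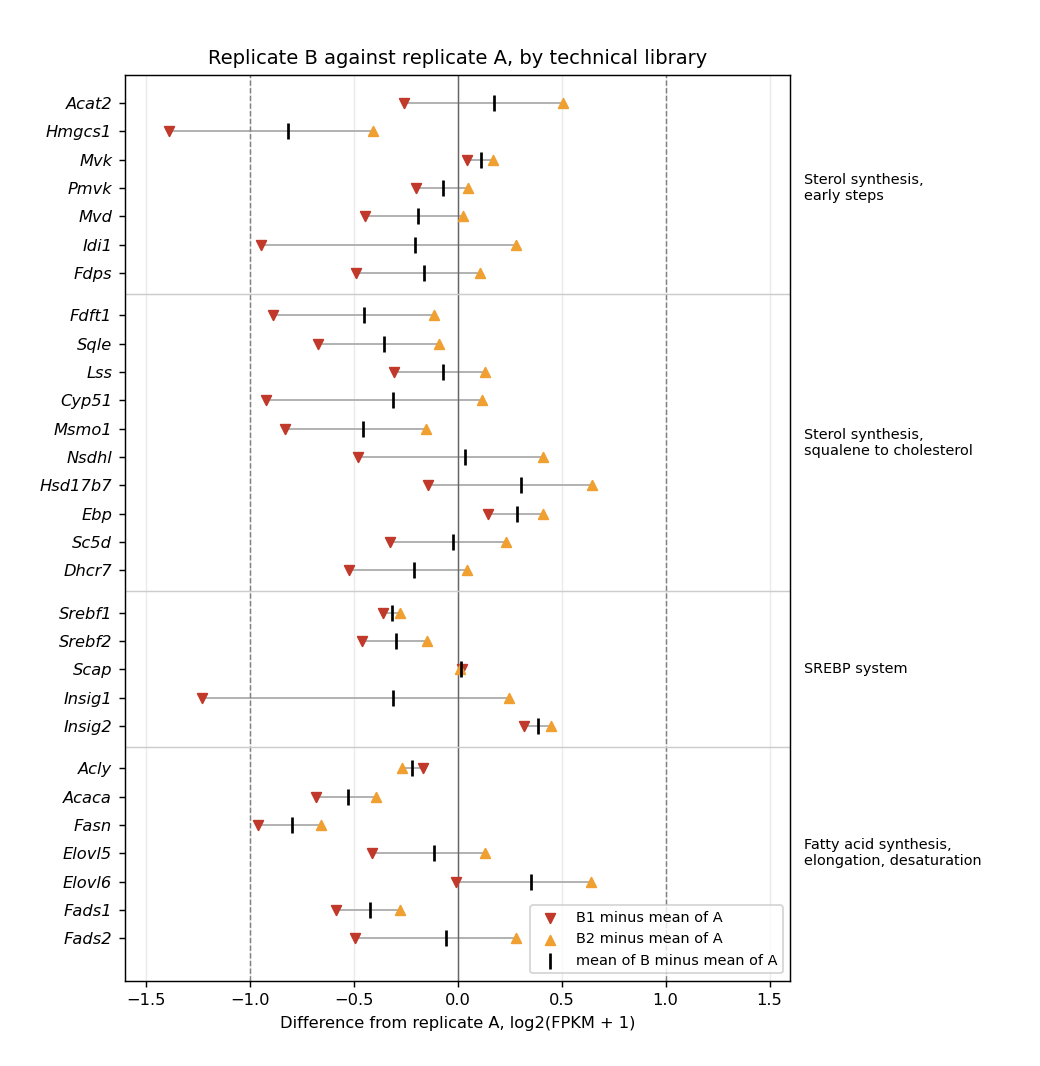
Difference from the mean of replicate A (log2(FPKM + 1)) for each member in B1, in B2 and in the mean of B; dashed lines mark the limit of 1 used for counting. The mean of B stayed inside the limit for all 29 members, while B1 passed it for *Hmgcs1* and *Insig1*.

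By the median, the members differed most between the technical libraries of replicate B. Some of them, *Fasn* and *Srebf1* among these, differed more between the replicate means. B2 was above B1 in 27 of 29 members, or 93.1%, against 49.1% of all names. All 17 sterol synthesis enzymes were among these 27, and the exceptions were *Scap* and *Acly*. The median difference B2 minus B1 was 0.56 on the log2(FPKM + 1) scale over the members, 0.60 over the sterol enzymes, 0.31 over the fatty acid genes, 0.13 over the SREBP system and -0.01 over all names, of which 5% were above 0.73. As a ratio of FPKM, B2 was between 0.932 and 2.96 times B1, with a median of 1.51.

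On the log2(FPKM + 1) scale the members with the largest difference were *Insig1*, *Idi1* and *Cyp51*, the 3 members at least 1 higher in B2 than in B1, or 10.3%, against 2.02% of all names. With a pseudocount of 0.1, or in TPM, 4 members were. *Insig1* was at 9.77 FPKM in B1 and at 28.9 FPKM in B2, 2.96-fold higher, a log2 difference of 1.47. For *Idi1* the ratio was 2.45 and the log2 difference 1.22, and for *Cyp51* they were 2.09 and 1.04. *Hmgcs1* came next with a ratio of 1.99 and a difference of 0.98, followed by *Nsdhl* with 0.89, *Hsd17b7* with 0.79, and a ratio of 2.47 that was above that of *Idi1*, and *Fdft1* and *Fads2* with 0.77 each. Besides sterol enzymes these include the feedback gene *Insig1* and a desaturase, and the final enzymes *Ebp*, *Sc5d* and *Dhcr7* differed less, by 0.27, 0.56 and 0.56. *Srebf1*, at 0.08, *Mvk*, at 0.12, and *Insig2*, at 0.13, differed little, and *Acly* was lower in B2 by a difference of -0.10.

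B1 was the low library for most members. It was the lowest of the 4 libraries in 23 of 29 members, or 79.3%, against 25.6% of all names, and in 15 of the 17 sterol enzymes. The exceptions were *Mvk*, *Ebp*, *Scap*, *Insig2*, *Acly* and *Elovl6*. B2 was above both libraries of A in 15 members, below both in 10 and between them in 4, or 51.7%, 34.5% and 13.8%, against 40.3%, 47.7% and 12.0% of all names. Summed over the 17 sterol enzymes, the level was 632 and 676 FPKM in A1 and A2, 394 FPKM in B1 and 642 FPKM in B2. The sum in B2 thus lay within the range of A. By gene, B2 was above both libraries of A in 10 of the 17, below both in 4 and between them in 3. *Hmgcs1*, the most abundant, was among those below both. Over the 7 fatty acid genes the sums were 434 and 424 FPKM in A and 283 and 355 FPKM in B. Over the 5 SREBP genes they were 219 and 201 FPKM in A and 163 and 194 FPKM in B. In each case both sums of B were below both of A. By gene, B2 was below both libraries of A in 4 of the 7 fatty acid genes and above both in 3. Of the 5 SREBP genes, B2 was below both in 2, above both in 2 and between them in 1. *Srebf1*, the most abundant of these 5, was among those below.

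**Figure D4:**
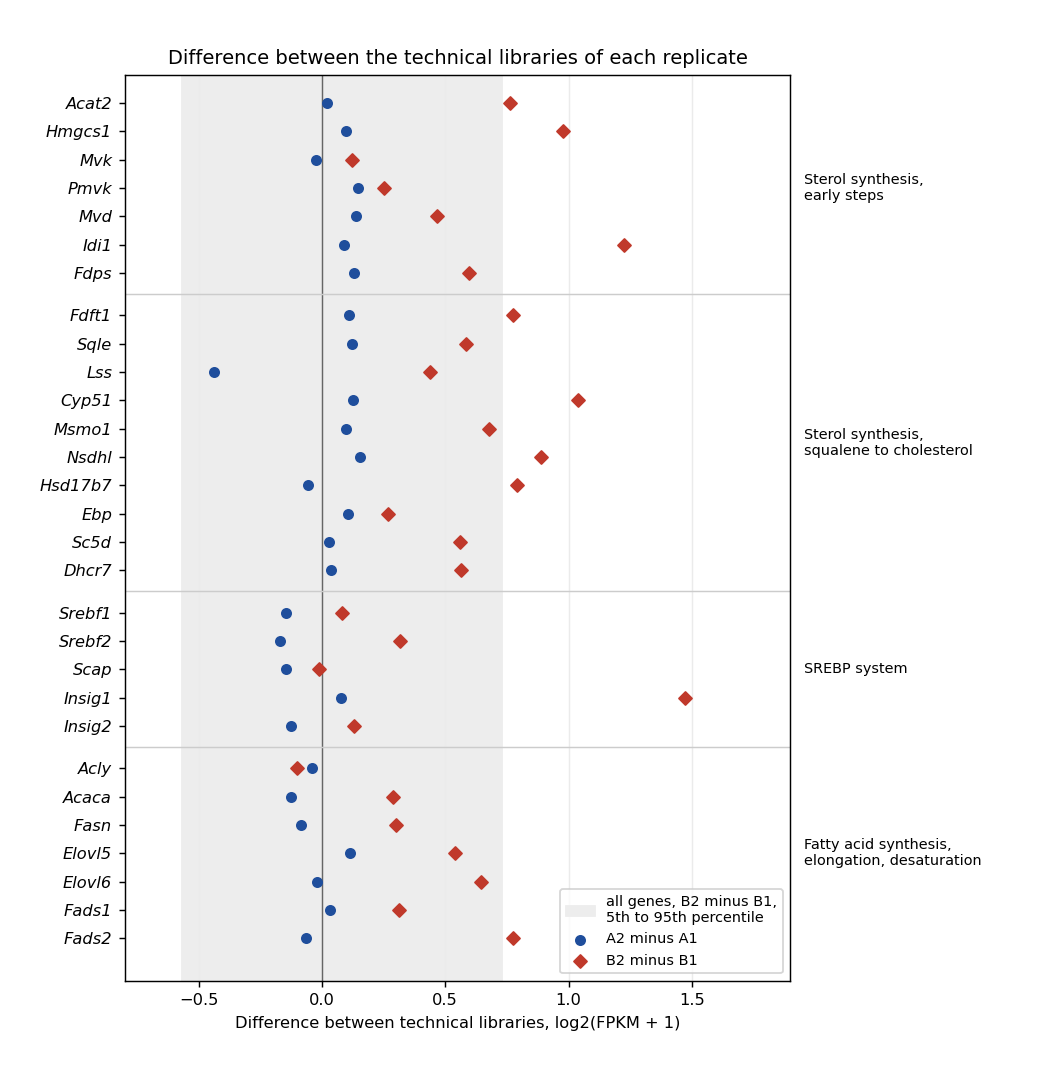
Difference between the technical libraries (log2(FPKM + 1)) of replicate A (A2 minus A1) and of replicate B (B2 minus B1) for each member; the grey band is the 5th to 95th percentile of B2 minus B1 over all names, from -0.57 to 0.73. The differences in A lie between -0.44 and 0.16, and those in B are above 0 for 27 of 29 members.

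The technical libraries of replicate A differed much less. A2 minus A1 was between -0.44 in *Lss* and 0.16 in *Nsdhl*, with a median of 0.03. The difference was larger between B1 and B2 than between A1 and A2 in 27 members, or 93.1%, against 70.6% of all names, and the exceptions were *Srebf1* and *Scap*. The sample titles place B1 and B2 in replicate B, the design text of the series calls such pairs technical replicates, and at which step they were parted is not stated. Column names in a gene list of the study can also be read as putting A1 with B1 in one replicate and A2 with B2 in the other. The labels were followed, and under that other reading the means of A and B, their overlap and the difference between B1 and B2 would have another meaning, while the value of each library would stay. B2 also had the lowest depth, with a median coverage of 215 over the members against 531 in B1, and the lowest coverage after that of *Hsd17b7* was 26.4, of *Acaca*. In B1 and B2 the meningeal and mesenchymal markers summed to 2671 and 3799 FPKM, with 11 of 12 higher in B2. The oligodendrocyte markers summed to 702 and 359.6 FPKM, the astrocyte markers to 954 and 1390.1 FPKM, the neuronal markers to 139 and 158 FPKM and the progenitor markers to 9961 and 10715 FPKM. The astrocyte rise was that of *Gfap*, at 419 and 904 FPKM in B1 and B2, while the other 4 summed to 534 and 487 FPKM. *Fabp7* fell from 6520 to 5485 FPKM, while the sum of the other 7 progenitor markers rose from 3442 to 5229 FPKM. Without *Col3a1* the meningeal and mesenchymal sum still rose, from 1977 to 2958 FPKM. Among markers averaging 1 FPKM or more, those higher in B2 than in B1 were 2 of 5 astrocyte and 4 of 8 progenitor markers. For the neuronal markers this was 3 of 5, and for the oligodendrocyte markers 0 of 5. The part of depth and of cell types in the difference between B1 and B2 was not tested.

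Other genes of the same pathways were read from lists of the sterol, transport, fatty acid and oxidation pathways. Over all names, 49.1% were higher in B2 than in B1, which is the share to set beside each count. Of the other sterol synthesis genes, 5 of 6 were higher in B2 than in B1, with a median difference of 0.30. *Dhdds*, a prenyltransferase of dolichol synthesis, was the most abundant, at 42.9 and 47.3 FPKM in A1 and A2 and at 50.7 and 42.1 FPKM in B1 and B2.

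Of the genes of SREBP processing, sterol uptake and transport with a mean of at least 1 FPKM, 4 of 6 were higher in B2 than in B1, with a median of 0.03. *Npc2*, a lysosomal cholesterol carrier, was at 139 and 157 FPKM in A1 and A2 and at 142 and 193 FPKM in B1 and B2, and *Mbtps1*, a protease that cleaves SREBP, at 27.7 and 27.9 FPKM in A and at 36.4 and 31.6 FPKM in B. Of the genes of sterol efflux, esterification and LXR, 3 of 7 were higher in B2, close to the 49.1% of all names, with a median of -0.06, and 2 of 7 were counted as higher in B than in A, against 4.78% of all names. These were *Mylip*, a ubiquitin ligase induced by LXR, at 3.60 and 3.09 FPKM in A and at 10.1 and 9.61 FPKM in B, and *Ch25h*, cholesterol 25-hydroxylase, at 2.50 and 3.07 FPKM in A and at 4.24 and 9.43 FPKM in B. The most abundant of that list were *Nr1h2*, an LXR, at 82.0 and 73.3 FPKM in A and at 88.3 and 70.8 FPKM in B, and *Abca1*, a sterol exporter, at 33.6 and 24.0 FPKM in A and at 14.6 and 26.7 FPKM in B.

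Of the other fatty acid synthesis genes, 10 of 14 were higher in B2, against 49.1% of all names, with a median of 0.10. *Scd2*, a stearoyl-CoA desaturase, was the most abundant gene of these lists, at 624 and 689 FPKM in A1 and A2 and at 493 and 518 FPKM in B1 and B2, a mean of 581 ± 107, and ranked 146 of 17337. *Tecr*, the last enzyme of each elongation round, was at 362 and 367 FPKM in A and at 299 and 323 FPKM in B. Both had their libraries of A above those of B and differed little within B. *Fads3*, a desaturase of the *Fads1* cluster, was counted as higher in B, at 8.64 and 8.24 FPKM in A and at 13.2 and 25.8 FPKM in B, and overlaps the span of *Fads2*. Of the genes of fatty acid oxidation and ketogenesis, 1 of 11 was higher in B2, against 49.1% of all names, with a median of -0.20, which lies within the middle range of all names (25th percentile -0.22). *Hadha* and *Hadhb*, the subunits of the mitochondrial trifunctional protein, were nearly level within B, at 137 and 134 FPKM and at 87.0 and 85.2 FPKM in B1 and B2.

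**Figure D5:**
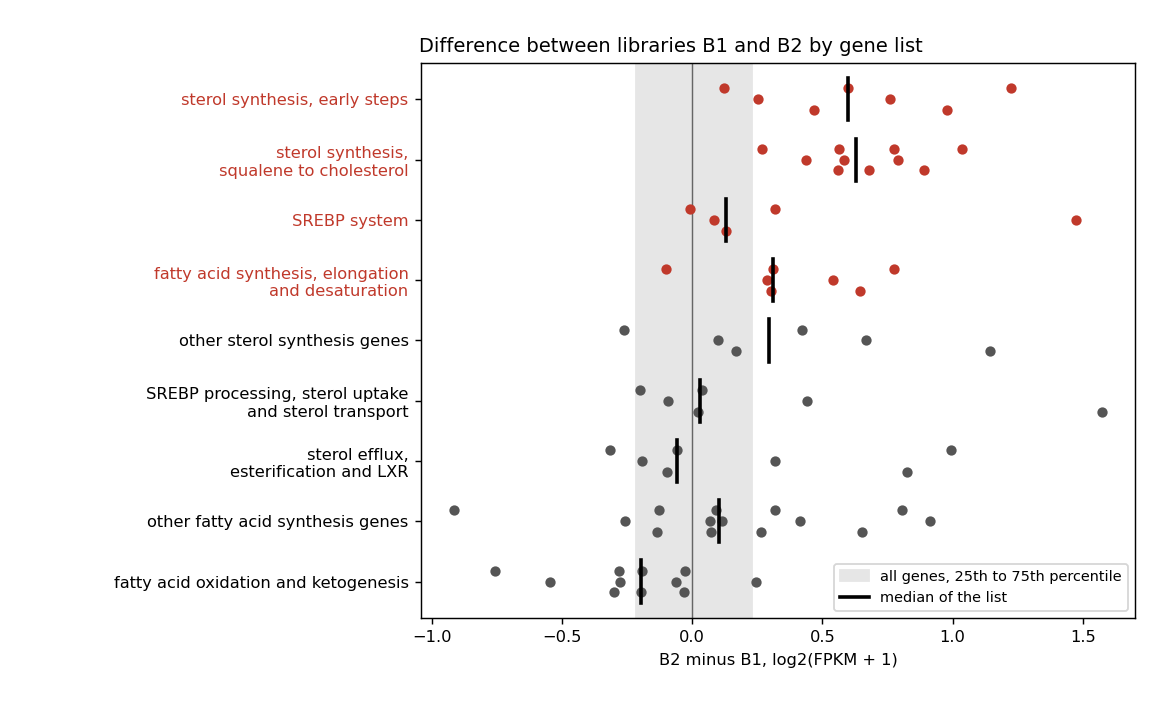
Difference B2 minus B1 (log2(FPKM + 1)) of each gene with a mean of at least 1 FPKM, by list, with the members' lists in red and the other pathway lists in grey; the bar is the list's median and the band the 25th to 75th percentile of all names. The medians are 0.60 and 0.63 for the sterol enzymes and -0.20 for fatty acid oxidation.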

How the data were processed

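The 4 polyA mRNA-seq libraries were grouped by the sample labels, A1 with A2 and B1 with B2, and no column was left without a sample. The authors aligned reads to rn6 with STAR, and the deposited FPKM, scaled to transcript length and library depth, were used as deposited. The deposited TPM served as an alternative, and the deposited coverage, a read depth not scaled for the library, as a measure of depth. The table layout is that of StringTie, which the submitters' processing notes list beside cutadapt, HISAT and STAR, while the methods name Rsubread and DESeq2 for FPKM. Versions are not given in the sources used here.

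Rows that share a gene name were added, and FPKM was then averaged over technical libraries. A gene called different between A and B had a mean of at least 1 FPKM, a difference of at least 1 in log2(FPKM + 1) of the replicate means, and no overlap of libraries. The counting was tested on simulated data. No paired block was used, since all samples are of 1 condition. Named genes are every member in the tables and, of each other pathway list, the 2 with the highest mean and those counted as differing, with exceptions stated; some genes of these lists are not reported here by name. The members and lists were chosen with earlier results of these data known. Alternatives were TPM, median-of-ratios scaling, a pseudocount of 0.1, a limit of 0.58, other filters on low values, and libraries or replicates left out. Counts between B1 and B2 were added after seeing the data. Start-seq, assembled transcripts and sequences of the rn6 genome were not analysed here. Tables were handled in Python 3.11.15 with numpy 2.4.6 and pandas 2.3.3, correlations were taken with scipy 1.17.1, and plots were drawn with matplotlib 3.10.9.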

Additional observations from a re-analysis of the deposited data

Results flagged for a closer look

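Each of the 29 members was examined for 1 library far from the other 3 of the 4 mRNA-seq libraries, and 2 were found by Dixon's criterion, the gap from 1 library to its neighbour as a share of the whole range. *Dhcr7* was at 15.6 FPKM in B1, with a ratio of 0.869, below the other 3 libraries. *Elovl6* was at 9.84 FPKM in B2, with a ratio of 0.977, above the other 3. Chance flags about 1 in 20 such groups, but that rate holds for independent values, and these libraries are technical pairs of 2 biological replicates.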

How the results depend on the processing

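No paired analysis was possible because the libraries are of 1 condition and no test between groups was made. With TPM in place of FPKM the members' median was 49.4 TPM and 6 members were above 100, with the limit required in every library 0 were, and with a replicate left out between 0 and 5 were. The number counted as higher in A was 0 as reported, 2 with a limit of 0.58 (*Hmgcs1* and *Fasn*, against 6.95% of all names) and between 0 and 2 with a library left out, the 2 without B2 being *Hmgcs1* and *Insig1*, against 1.82% of all names. The median difference of B minus A was 0.11 without B1 and -0.46 without B2. Of 48 alternatives on the counts and medians, 41 stayed within their limits and 7 moved. Of 203 on single members 4 moved, all without B2: *Hmgcs1*, *Idi1*, *Cyp51* and *Insig1*, at -1.39, -0.94, -0.92 and -1.23. TPM turned the sign of *Nsdhl* and *Scap*, which scaling and the pseudocount kept, and leaving out a library turned the sign of 16 members. The number of members higher in B2 than in B1 was 27 to 28 in TPM and after scaling. With n = 2 and the lowest depth in B2, the spread of each level is poorly known, and a difference between libraries of 1 replicate has no replicate of its own.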
